A study of Sus scrofa with 8 samples.

Results

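The claudin, tight junction, cadherin and catenin genes, with the polarity genes of the same junctions, were followed in porcine pancreatic ductal organoids (PPDO), which are hollow epithelial cultures grown from duct pieces of the pig pancreas. Members were taken by gene name from the deposited count table: every CLDN, TJP, CDH, MARVELD, PARD3, PARD6 and CRB gene, together with OCLN, CGNL1, F11R, PATJ and the catenins CTNNA1, CTNNB1, CTNND1 and CTNND2. This gave 61 of 30282 genes, of which 19 were claudins and 22 were cadherins. Names in the table did not include CLDN7 and PALS1, so these 2 genes were matched by gene identifier and are described beside the 61 without being counted among them. CGN, CRB3, CLDN12 and CDH26 were not matched and were not analysed here.

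Poly(A) RNA was sequenced from 4 PPDO lines, each grown once in complete medium and once in differentiation medium for 7 days, which gave 8 libraries. The lines were 1 embryonic (Em), 2 early postnatal (EPN1 and EPN2) and 1 late postnatal (LPN), each from 1 animal, and their names were read from the columns of the count table. The submitted sample titles separate control from treated samples, while their treatment field names the endocrine induction medium for all 8. Both media held N2, B27 without vitamin A, the TGF-beta receptor inhibitor A83-01, the ROCK inhibitor Y-27632, nicotinamide and N-acetyl-L-cysteine. Complete medium also contained prostaglandin E2, WNT3a, R-spondin1, noggin, FGF10, EGF and gastrin, and differentiation medium lacked them. To maintain PPDO, the study supplied WNT3a, R-spondin1 and noggin as an L-WRN conditioned medium supplement. Which form was used for these libraries is not stated. Organoids were embedded in Cultrex, a basement membrane extract. The pigs were wild-type or INS-eGFP German landrace, the study describes the bulk lines as early passage, and the genotype and exact passage of each library are not given in the sources used here.

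Tight junctions seal the space between epithelial cells near the lumen. Claudins form their strands and set which ions pass, some as barriers and others as channels, while occludin and the other MARVEL proteins sit in the same strands and TJP scaffolds tie them to actin. Adherens junctions lie below them, where the extracellular part of a cadherin holds the neighbouring cell and its tail binds catenins that link it to actin. PAR and Crumbs complexes place these junctions between the apical and the lateral membrane, and in the pancreatic duct the sealed sheet lets the cells secrete bicarbonate and fluid into the lumen.

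Library totals ran from 40553593 to 47910657 counts, and a limit of 3 counts in 1 library equalled 0.0626 to 0.074 CPM, which is counts scaled to a common library size. Values are CPM after TMM scaling, given in the order Em, LPN, EPN1 and EPN2. CPM does not correct for gene length, so levels are compared between libraries and not between genes. The 7 duct epithelium markers found (of 8 listed) were above 3 counts in at least 1 library, and their summed level was 5121 to 7365 CPM in complete medium. In differentiation medium it was 10134 in Em, 3364 in LPN, 7287 in EPN1 and 1319 in EPN2, so EPN2 stood below all other libraries.

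The junction genes as a group were mostly higher in differentiation medium, and few of them passed the test. Of the 61 genes, 36 had enough counts to be tested, and their median log2 difference (differentiation over complete medium) was 0.55, against 0.01 over all 14475 genes tested. The difference was positive for 31 of the 36 (86.1%), against 50.7% of all genes. These values describe only the members with enough counts. In edgeR's quasi-likelihood test with Benjamini-Hochberg adjustment over all genes, 3 of 36 members (8.33%) passed an adjusted p of 0.05, beside a background of 6.97% of genes. OCLN, TJP1 and CTNNA1 were these 3 and all rose, in a background of 2.87% of genes that rose and 4.1% that fell. At an unadjusted p of 0.05, 12 of the 36 passed (33.3%), beside 27.3% of all genes.

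The same animal gave 1 library in each medium, so the fit was also made with the line as a block, which takes the level of each line out of the comparison. It called 11 of 36 members (30.6%), beside 19.9% of all genes. Of these, 8 were higher (CDH1, CLDN18, CLDN23, CTNNA1, CTNND1, MARVELD2, OCLN and TJP1), in a background of 9.48%. The 3 lower ones were CLDN2, CDH3 and PARD6B, in a background of 10.4%. Other ways of fitting the same table called 3 members with RLE size factors (background 6.81%), 3 without counts from extended gene ends (7.24%) and 1 without a filter on low counts (2.05%). DESeq2 called 11 of the 43 members to which it gave an adjusted p (17.7% of all genes), and 21 of 41 with the line as a block (34.7%). Without both EPN2 libraries, 5 of 38 members passed in edgeR, beside 8.26% of genes: CTNNA1, MARVELD3 and CDH24 were higher and CLDN2 and CDH22 lower. With all 8 libraries CDH22 lacked the counts to be tested in edgeR. Without EPN2 it reached the filter only through complete medium, where its counts were high, so its call adds no support. Because RNA was taken from whole organoids, fewer cells of a type and less RNA per cell cannot be told apart in any of these values.

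**Figure D1:**
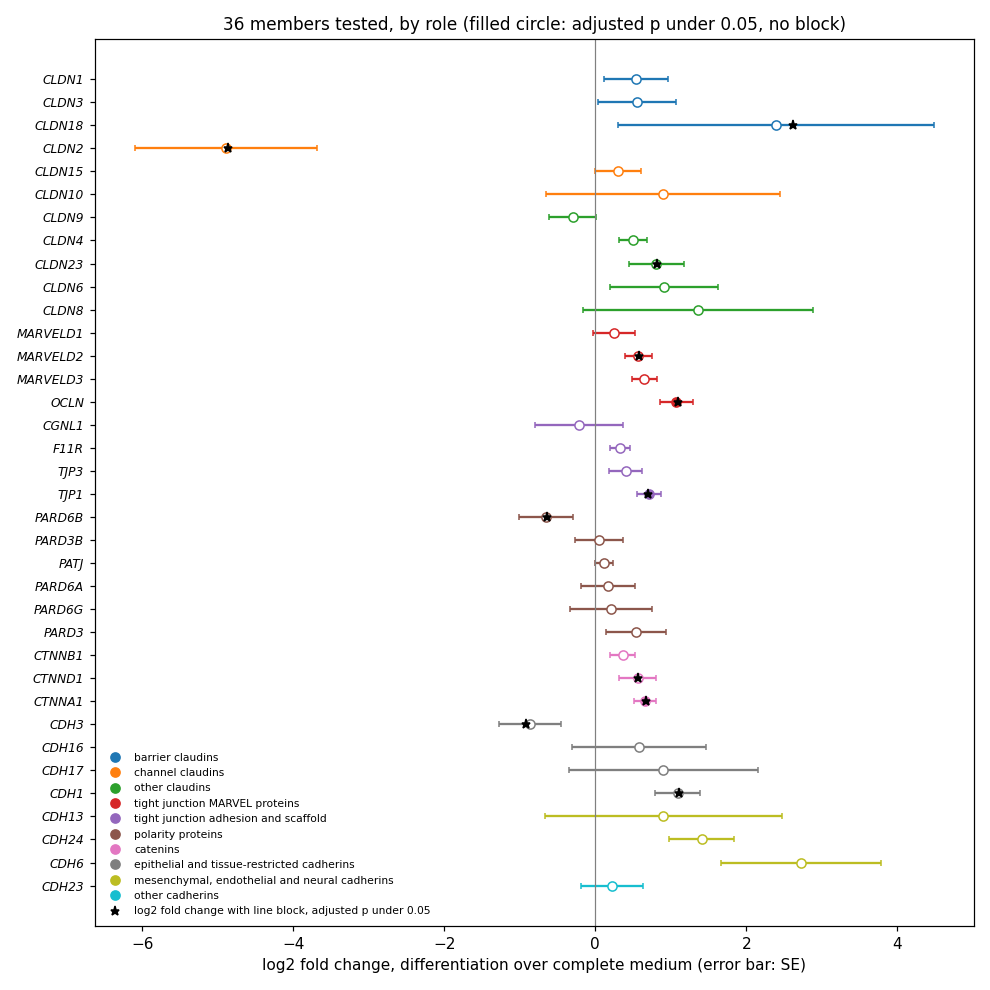
The log2 difference between differentiation and complete medium (x axis) is shown for the 36 members tested, grouped by role, as circles with bars of 1 standard error from the fit without the line block. Filled circles are OCLN, TJP1 and CTNNA1, which passed an adjusted p of 0.05, and stars give the 11 values that passed with the line as a block. Most circles lie right of 0, and CLDN2 lies farthest left at -4.89.

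Counted line by line, 16 of the 36 members were higher in differentiation medium in 4 of 4 lines (44.4%), against 23.9% of all genes. Only 3 members were lower in 4 of 4 lines (8.33%, against 24.2%), and they were CLDN2, CDH3 and PARD6B. The ranges of the media did not overlap for 7 members that were higher (19.4%, against 8.82% of genes) and for 1 that was lower, CLDN2 (2.78%, against 9.96%). By line, the number of members with the higher value in differentiation medium was 28 in Em, 28 in LPN, 28 in EPN1 and 23 in EPN2. Their median log2 ratios in these lines were 0.58, 0.62, 0.44 and 0.47. Of all genes tested, 50.1%, 49.3%, 50.4% and 49.1% were higher in these lines. Their median log2 ratios, where both libraries had counts, were 0.00, -0.01, 0.01 and -0.01.

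Among the proteins in the tight junction strand, OCLN, which encodes occludin, was at 154, 87.2, 93.1 and 99.4 CPM in complete medium and at 233, 192, 203 and 286 CPM in differentiation medium. Every library in differentiation medium was above every library in complete medium, and the ratio was 1.51, 2.20, 2.18 and 2.88 in the 4 lines. OCLN rose by 1.07 on the log2 scale (SE 0.22, edgeR adjusted p = 0.0327), and by 1.10 with the line as a block (adjusted p = 0.0174). Of the 8 fits that left out 1 library, it passed only in the one without Em in complete medium (adjusted p = 0.0208), and the others reached up to 0.0970. MARVELD2, which encodes tricellulin of the corners where 3 cells meet, read 90.2, 59.1, 69.7 and 66.1 CPM in complete medium and 129, 90.2, 113 and 91.9 CPM in differentiation medium. Each line was higher by 1.39 to 1.62 times, with the lowest differentiation value only just above the highest complete value. The difference of 0.57 (SE 0.18) had an edgeR adjusted p of 0.0873, and of 0.0177 with lines blocked. In RefSeq's pig annotation (Sscrofa11.1) the pair are neighbours, with MARVELD2 at chr16:47529857-47563485 and OCLN at chr16:47600175-47652435.

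MARVELD3, the other MARVEL protein of the strand, was at 58.5, 59.5, 53.6 and 73.3 CPM in complete medium and at 102, 104, 109 and 70.5 CPM in differentiation medium. Values were higher in 3 lines and close to level in EPN2, with a difference of 0.65 (SE 0.17, edgeR adjusted p = 0.0563, and 0.0690 with lines blocked). DESeq2 called it (adjusted p = 0.00828, and 0.0153 with the block), and without the EPN2 library in differentiation medium the edgeR adjusted p was 0.0256. MARVELD1, a relative with a less settled place at junctions, differed by 0.25 (SE 0.28, edgeR adjusted p = 0.602). Its values lay between 11.3 and 28.1 CPM and overlapped between the media.

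TJP1, which encodes the scaffold ZO-1 beneath the strands, was at 311, 254, 280 and 305 CPM in complete medium and at 476, 373, 451 and 587 CPM in differentiation medium. The media did not overlap, and TJP1 rose by 0.71 (SE 0.16, edgeR adjusted p = 0.0416, and 0.0192 when lines were blocked). Leaving out any 1 library took its adjusted p above 0.05, to between 0.0529 and 0.117. TJP3, encoding ZO-3, read 117, 89.1, 115 and 100 CPM in complete medium against 173, 120, 170 and 92.1 CPM in differentiation medium, with EPN2 the only line lower (difference 0.40, SE 0.22, edgeR adjusted p = 0.272).

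F11R, which encodes the adhesion protein JAM-A, was at 342, 331, 407 and 296 CPM in complete medium and at 464, 444, 408 and 410 CPM in differentiation medium. The 4 differentiation values lay above the 4 complete ones by a narrow margin, with EPN1 level, and the difference of 0.33 (SE 0.13) had an edgeR adjusted p of 0.160. CGNL1, encoding paracingulin, went in opposite directions, from 92.8 to 18.8 CPM in Em and from 32.9 to 71.7 CPM in EPN2. In LPN it went from 18.9 to 35.9 CPM and in EPN1 from 29.5 to 23.2 CPM, and the edgeR adjusted p was 0.838 (difference -0.22, SE 0.58).

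**Figure D2:**
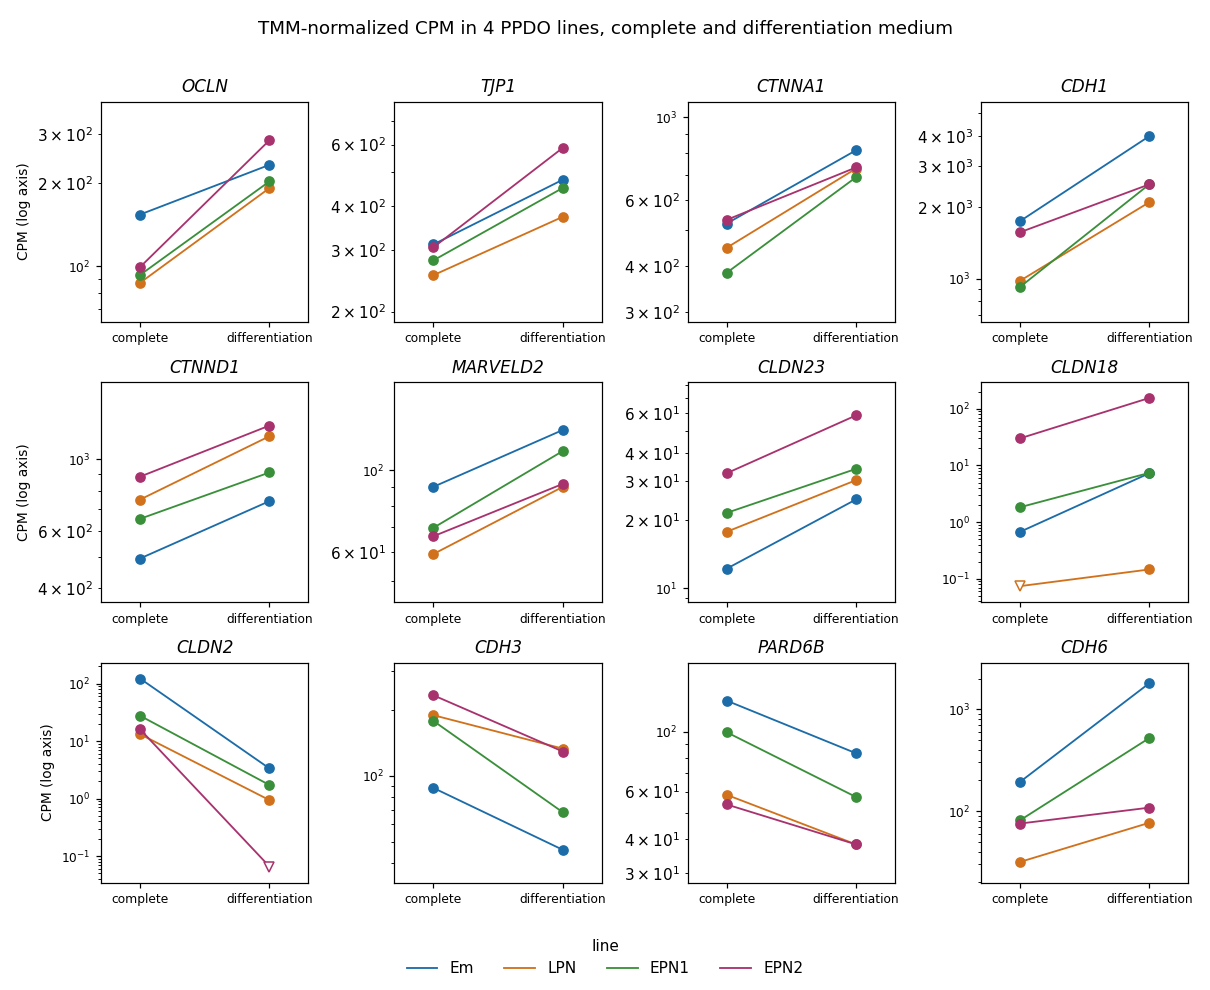
TMM-scaled CPM on a log axis (y) in complete and differentiation medium (x) for 12 junction genes, with 1 point for each library and a line joining the libraries of 1 PPDO line, and an open triangle at the limit of 3 counts where a library held 3 or fewer. OCLN, TJP1 and CTNNA1 are higher in differentiation medium in all 4 lines without overlap, whereas CLDN2 is at 13.2 to 123 CPM in complete medium and at 3.34 CPM or below in differentiation medium.

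Among the channel-forming claudins, CLDN2, which encodes a cation and water channel of leaky epithelia, was at 123, 13.2, 27.7 and 16.1 CPM in complete medium. It was at 3.34, 0.939 and 1.72 CPM in differentiation medium in Em, LPN and EPN1, and at 2 counts (0.0467 CPM), below the limit of 3, in EPN2. The ratio was 36.8, 14.1 and 16.1 times lower in Em, LPN and EPN1, with no overlap between the media. The fitted difference of -4.89 (SE 1.21) had an edgeR adjusted p of 0.0512, and -4.86 had an adjusted p of 0.0140 with lines blocked. Leaving out 1 library at a time gave differences from -5.63 to -3.63 and adjusted p from 0.0511 to 0.133. The gene lies on chromosome X at 87352695 to 87355724.

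CLDN10, whose isoforms form cation or anion channels, read 82.3, 8.29, 53.3 and 0.113 CPM in complete medium and 178, 17.3, 70.6 and 2.27 CPM in differentiation medium. Each line had the higher value in differentiation medium, and the spread between lines was far wider than that between media (difference 0.90, SE 1.55, edgeR adjusted p = 0.740, and 0.118 with lines blocked). The table gives 1 value for the gene, so its isoforms were not separated. CLDN15, another cation channel, was at 2.88 to 5.39 CPM in complete medium and at 3.59 to 6.03 CPM in differentiation medium, with an edgeR adjusted p of 0.557.

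Of the claudins grouped as barriers, CLDN18, known from stomach and lung epithelium, read 0.672, 0, 1.83 and 30.1 CPM in complete medium and 7.32, 0.146, 7.42 and 156 CPM in differentiation medium. EPN2 held most of the signal in both media, and LPN had 0 counts in complete medium and 7 in differentiation medium. The ratio was 10.9, 4.06 and 5.19 in Em, EPN1 and EPN2. Without the block the difference of 2.39 had an SE of 2.09 and an edgeR adjusted p of 0.491, and with lines blocked it was 2.62 (SE 0.33, adjusted p = 0.0131). Rows for an extended end of the gene supplied 32.2% of its counts.

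CLDN1, a barrier claudin of skin and many epithelia, was at 155, 326, 280 and 189 CPM in complete medium and at 183, 354, 222 and 620 CPM in differentiation medium. EPN2 showed the one large ratio of 3.29, EPN1 was lower, and the edgeR adjusted p was 0.433 (difference 0.54, SE 0.42). CLDN3 read 115, 74.6, 67.7 and 32 CPM against 156, 115, 122 and 30.8 CPM, higher in 3 lines and level in EPN2 (difference 0.55, SE 0.52, edgeR adjusted p = 0.522). CLDN11, CLDN14 and CLDN19 were at or below 3 counts in every library.

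CLDN4, the neighbour of CLDN3 on chromosome 3, was at 504, 293, 380 and 337 CPM in complete medium and at 554, 483, 470 and 628 CPM in differentiation medium. The ratio was 1.10 to 1.86 over the 4 lines, although the ranges overlapped (difference 0.50, SE 0.19, edgeR adjusted p = 0.149, and 0.0754 with the block). CLDN7, matched by its identifier, read 169, 94.1, 112 and 88.9 CPM against 205, 99.2, 147 and 61.9 CPM. EPN2 was the one line lower, and the difference was 0.15 (SE 0.37, edgeR adjusted p = 0.830).

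CLDN23, whose product lines differentiated cells of the gut surface, was at 12.2, 17.8, 21.6 and 32.4 CPM in complete medium and at 24.8, 30.2, 33.9 and 58.6 CPM in differentiation medium. Each line was higher by 1.57 to 2.04 times, yet the ranges overlapped, with the lines at different levels in complete medium. Its difference of 0.81 (SE 0.36) had an edgeR adjusted p of 0.190, and 0.82 (SE 0.11) had an adjusted p of 0.0145 with lines blocked. CLDN8, a barrier claudin of the distal nephron and colon, read 66.9, 27.8, 70 and 0.407 CPM against 262, 35.1, 125 and 0.771 CPM. All 4 lines were higher, with EPN2 far below the rest in both media (difference 1.36, SE 1.52, edgeR adjusted p = 0.597, and 0.0589 with the block).

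CLDN6, a claudin of early epithelia, and CLDN9 beside it on chromosome 3 did not pass either fit. CLDN6 was at 5.49 to 17 CPM in complete medium and at 35.3, 20.6, 27.7 and 2.17 CPM in differentiation medium, higher in 3 lines and lower in EPN2 (edgeR adjusted p = 0.445). CLDN9 was at 1.19 to 2.66 CPM throughout, with a difference of -0.30 (edgeR adjusted p = 0.569). Over all 19 claudins, 11 were tested and 0 passed edgeR's test without the block, while 2 had an unadjusted p under 0.05 (27.3% of all genes did). With the block 3 of 11 passed in edgeR (CLDN18 and CLDN23 higher, CLDN2 lower), beside 19.9% of all genes. Without the block DESeq2 gave an adjusted p to 11 claudins, not including CLDN18, and called CLDN2 alone (background 17.7%). With the block it called 7 of 11 (34.7%), which added CLDN3, CLDN4, CLDN8, CLDN10, CLDN18 and CLDN23 as higher.

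CDH1, which encodes E-cadherin, the adhesion molecule of most epithelia, was at 1748, 978, 921 and 1569 CPM in complete medium and at 4004, 2104, 2505 and 2503 CPM in differentiation medium. Every differentiation value was above every complete value, with ratios of 2.29, 2.15, 2.72 and 1.60. The difference was 1.09 (SE 0.30, edgeR adjusted p = 0.0646), and 1.11 (SE 0.17, adjusted p = 0.0172) when lines were blocked. DESeq2 called it with and without the block.

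CDH3, which encodes P-cadherin of basal epithelial cells, read 88, 189, 178 and 233 CPM in complete medium and 45.9, 133, 68.1 and 129 CPM in differentiation medium. It was lower in every line by 1.42 to 2.62 times with overlapping ranges (difference -0.87, SE 0.41, edgeR adjusted p = 0.211, and -0.92, SE 0.16, adjusted p = 0.0214 with the block). Both genes lie on chromosome 6, CDH1 at chr6:18075487-18155986 and CDH3 at chr6:18190971-18236184. Counts assigned to an extended end of CDH3 were 20.3% of its total, and without them the difference was -0.89 (edgeR adjusted p = 0.203).

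The tissue-restricted cadherins were uneven between lines. CDH17, the cadherin of intestinal epithelium, read 8.38, 2.34, 31 and 3.62 CPM in complete medium and 31.4, 10, 43 and 0.257 CPM in differentiation medium. It was higher in Em, LPN and EPN1 and 14.1 times lower in EPN2 (difference 0.90, SE 1.25, edgeR adjusted p = 0.675). CDH16, the kidney cadherin, stayed at 3.64 CPM or below in all libraries (edgeR adjusted p = 0.706).

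Catenins bind the cadherin tail, and 1 of the 3 tested, CTNNA1, rose without the block. CTNNA1, encoding alpha-catenin that couples to actin, was at 519, 447, 383 and 531 CPM in complete medium and at 816, 729, 691 and 734 CPM in differentiation medium. Without overlap between the media it rose by 0.66 (SE 0.15, edgeR adjusted p = 0.0393, and 0.0217 with the block). When any 1 library was left out, its adjusted p stayed under 0.05 only without EPN2 in complete medium (0.0387) and reached 0.113 at most. CTNND1, encoding p120-catenin that keeps cadherin at the surface, read 493, 750, 654 and 883 CPM against 742, 1178, 910 and 1271 CPM. Each line was higher by 1.39 to 1.57 times and the ranges overlapped (difference 0.56, SE 0.24, edgeR adjusted p = 0.176, and 0.0259 with the block).

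CTNNB1, encoding beta-catenin, which serves both the junction and WNT signalling, read 607, 524, 489 and 590 CPM in complete medium and 609, 857, 618 and 760 CPM in differentiation medium. The media did not overlap, although Em was level (609 against 607 CPM), and the difference was 0.36 (SE 0.16, edgeR adjusted p = 0.184, and 0.136 with the block). Complete medium held WNT3a and R-spondin1 and differentiation medium did not. RNA levels say nothing of where the beta-catenin protein lay.

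Among the polarity genes, PARD6B, a partner of atypical protein kinase C in the apical PAR complex, was at 130, 58.4, 99.4 and 53.8 CPM in complete medium and at 83.1, 38.3, 57.3 and 38.3 CPM in differentiation medium. It was lower in every line by 1.40 to 1.73 times (difference -0.65, SE 0.36, edgeR adjusted p = 0.280, and -0.64, SE 0.10, adjusted p = 0.0167 with the block). PARD3, the scaffold of that complex, read 52.3, 93.4, 75.2 and 91.9 CPM against 49.1, 130, 80.4 and 194 CPM, with the one large ratio, 2.11, in EPN2 (edgeR adjusted p = 0.424). PALS1, the Crumbs-complex adaptor matched by its identifier, read 43.6, 37, 42.7 and 42.5 CPM against 62.9, 49.5, 51.8 and 53.8 CPM. The media did not overlap, and the difference of 0.39 (SE 0.12) had an edgeR adjusted p of 0.0832, and of 0.0438 with the block.

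The remaining polarity genes did not pass either fit. PATJ, another Crumbs-complex scaffold, was at 137 to 179 CPM in complete medium and at 172 to 181 CPM in differentiation medium (edgeR adjusted p = 0.521). PARD3B was at 55.8 to 59.6 CPM in complete medium and divided in differentiation medium, at 86.1 and 83.3 CPM in Em and EPN1 and at 37.4 and 33.1 CPM in LPN and EPN2. PARD6A stayed below 0.5 CPM in each library. CRB1 and CRB2, the Crumbs proteins found in the table, had at most 5 counts in a library.

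Line carried more of the variation than medium for most members, as it did for most genes. Split over line, medium and remainder, the median share of a member's log2 CPM variance was 52.8% for line and 23.2% for medium, close to the 49.3% and 24.4% of all genes tested. The share of line was above that of medium for 25 of 36 members (69.4%, against 64.8% of genes). It exceeded 80% for 6 members, which were CLDN8 (96.6%), CDH13 (95.8%), PARD6G (90.3%), CLDN10 (88.8%), CLDN3 (88.2%) and CLDN18 (87.9%). How many of all genes exceeded 80% was not counted, so this number says nothing particular about the members. The shares are a description without a test, because each line is 1 animal.

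Among these 6 genes in complete medium, EPN2 had the lowest CLDN8, CLDN10 and CLDN3 and the highest CLDN18 and CDH13. Em had the highest CLDN10 and CLDN3 and the lowest CDH13 and PARD6G. LPN had the lowest CLDN18 and the highest PARD6G, and EPN1 the highest CLDN8. The genes were picked for a large line share, so these ends do not set EPN2 apart. CDH13, encoding T-cadherin, which is anchored in the membrane without a tail, read 0.325, 2.39, 0.409 and 10.9 CPM in complete medium and 0.103, 5.39, 0.498 and 20.2 CPM in differentiation medium. PARD6G, a relative of PARD6B, read 28.8, 74.6, 50.6 and 69.2 CPM against 17.7, 90.7, 42 and 108 CPM, higher in LPN and EPN2 and lower in Em and EPN1. The duct marker sum of EPN2 in complete medium, 5121 CPM, was the lowest of the 4 lines, and its part in these values was not tested.

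**Figure D3:**
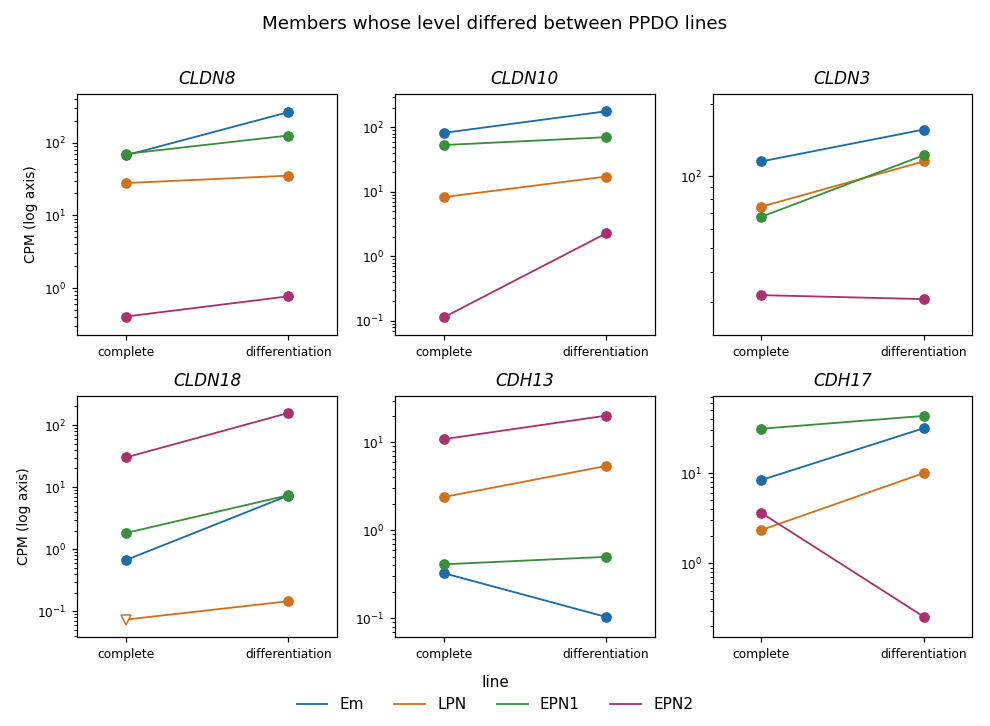
TMM-scaled CPM on a log axis (y) for CLDN8, CLDN10, CLDN3, CLDN18, CDH13 and CDH17, shown for each PPDO line (Em, LPN, EPN1, EPN2) in both media. For CLDN8, EPN2 stands at 0.407 and 0.771 CPM and the other lines at 27.8 CPM or above.

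**Figure D4:**
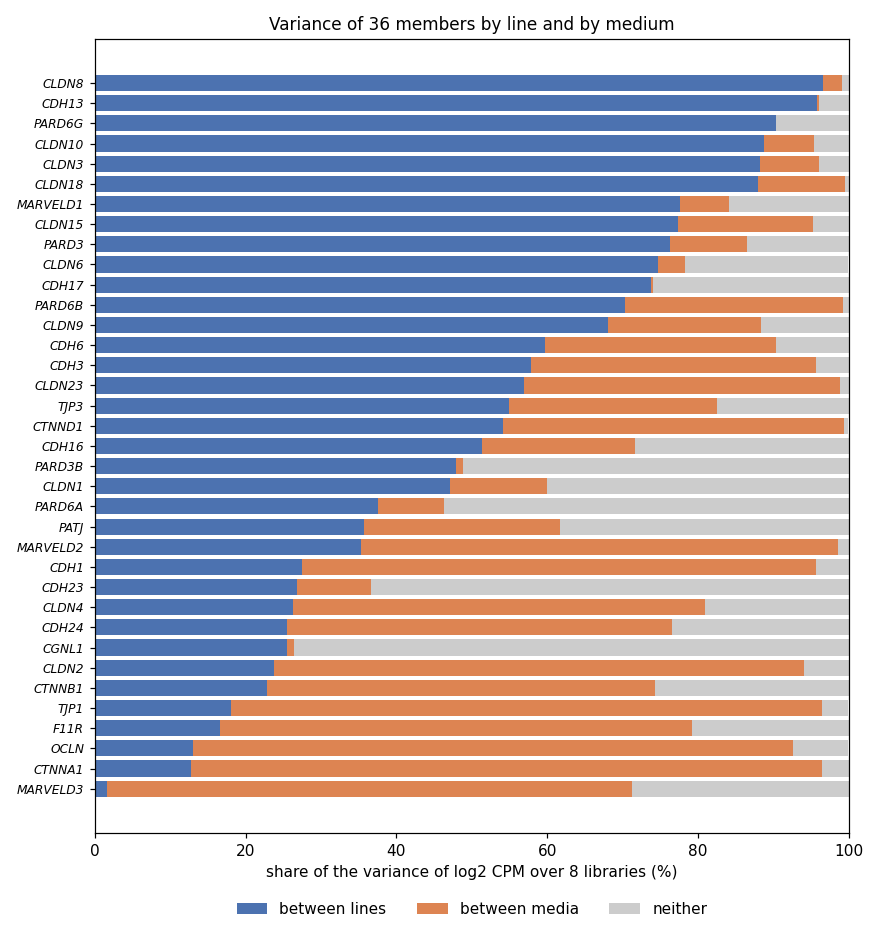
Stacked bars give, for each of the 36 members tested, the percent of log2 CPM variance that lies between lines, between media and in the remainder (x axis, 0 to 100%). CLDN8 and CDH13 have the longest line segments, at 96.6% and 95.8%, while CTNNA1 has 83.7% between media.

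Cadherins known from mesenchyme, endothelium and the nervous system were for the most part near the limit of counting, and 3 of 17 had enough counts to be tested, CDH6, CDH24 and CDH13. CDH6, encoding K-cadherin of the developing kidney and known from several epithelia, was at 193, 31.6, 81 and 75.3 CPM in complete medium and at 1805, 76.7, 522 and 108 CPM in differentiation medium. The level was higher in every line, by 9.33 times in Em, 6.45 in EPN1, 2.43 in LPN and 1.44 in EPN2. The difference of 2.72 (SE 1.06) had an edgeR adjusted p of 0.147, and 1.93 (SE 0.51) had an adjusted p of 0.0507 with the block, so neither passed in edgeR, while DESeq2 called it (adjusted p = 0.0258, and 0.000238 with the block). Without the Em library in differentiation medium it was 1.31.

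CDH24, a cadherin that binds alpha- and beta-catenin, read 22.3, 41.1, 51.4 and 31 CPM against 140, 94.9, 119 and 34.7 CPM. All 4 lines were higher, EPN2 by only 1.12 times, and the difference of 1.41 (SE 0.43) had an edgeR adjusted p of 0.0867, and of 0.0712 with the block. DESeq2 called it (adjusted p = 0.0170, and 0.00531 with the block). Without the EPN2 library in differentiation medium the difference was 1.69 with an adjusted p of 0.0273. CDH23, the cadherin of hair-cell tip links, was higher in Em and EPN1 and lower in LPN and EPN2, at 12.9 to 49.1 CPM in all libraries (edgeR adjusted p = 0.764).

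The 25 members that were not tested are accounted for as follows. In 14 of them no library had more than 3 counts, and CLDN14, CDH9 and CDH19 among these had no count at all. The other 11 exceeded 3 counts in at least 1 library, and 5 of the 61 are described next because their counts stood out once seen. CTNND2, encoding delta-catenin of neurons, had 7, 2, 2 and 1 counts in complete medium and 549, 10, 106 and 4 counts in differentiation medium. As a share of all counts in the library that was 11.5 CPM in Em (95% exact binomial interval 10.5 to 12.5) and 2.55 in EPN1 (2.09 to 3.08), intervals that cover counting error only.

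CDH12, a cadherin of the brain, had 63 counts in Em and 12 in EPN1 in differentiation medium and none in the other 6 libraries. CDH11, the cadherin of mesenchyme and bone, had 34 counts in Em and 1 in EPN1 in differentiation medium and none elsewhere. CDH7 was found in a single library, with 21 counts in EPN2 in complete medium. The Em library in differentiation medium also had the highest summed stromal markers of all 8, 542 CPM against 147 to 420 CPM in complete medium, nearly all of it from THY1, and the highest summed endocrine markers, 23.7 CPM against 3.21 CPM or below in the others. For stroma, 9 of 9 markers exceeded 3 counts in at least 1 library, and for endocrine cells 5 of 7, with NEUROD1 and PPY at or below 3. Apart from THY1, the highest count of a stromal marker in any library was 1224 for POSTN (LPN in complete medium), 268 for COL3A1 (EPN1 in differentiation medium, with at most 2 in complete medium) and 224 for PDGFRB (Em in complete medium), while COL1A1, COL1A2 and DCN reached at most 56, 85 and 8. Their part in the cadherin values was not tested.

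CDH22, another cadherin of the brain, had most of its counts in complete medium, with 39, 77, 31 and 9 counts in complete medium and 0, 0, 2 and 5 counts in differentiation medium. The ranges did not overlap, and under edgeR's default filter it was tested only when a library or line was left out. It passed as lower in the 3 fits without EPN2 libraries, with differences of -4.78 (adjusted p = 0.0457), -5.73 (0.0469) and -6.07 (0.0340) from edgeR. In the fits without Em, LPN or EPN1 in differentiation medium, edgeR gave adjusted p of 0.0882, 0.116 and 0.143. CDH22 reached the filter only through complete medium, where its counts were high, so these calls add no support beyond the counts. DESeq2, which tests genes with fewer counts, called CDH22 lower and CTNND2 higher with and without the block. Both are among the 11 and 21 members it called. Each had most of its counts in 1 medium and was picked after they were seen, so these calls add no support either. CDH2, which encodes N-cadherin of mesenchymal and nerve cells, had 0, 0, 5 and 26 counts in complete medium and 4, 5, 25 and 3 counts in differentiation medium, with no order between the media.

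The members that mark endothelial junctions were near 0. CDH5, encoding VE-cadherin, had at most 1 count in a library, and CLDN5, the claudin of vessels, at most 8. ESAM, an endothelial adhesion gene outside the name rule, was at 0.641 ± 0.34 CPM in complete medium against 1.63 ± 1.33 CPM in differentiation medium (mean ± SD, n = 4 each), with an edgeR adjusted p of 0.233. The endothelial markers as a list nonetheless exceeded 3 counts for 7 of 7 genes in at least 1 library, with sums of 26.6 to 42.3 CPM in complete and 19.2 to 49.8 CPM in differentiation medium, carried mostly by PECAM1, KDR and TIE1, and by TEK in EPN1.

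**Figure D5:**
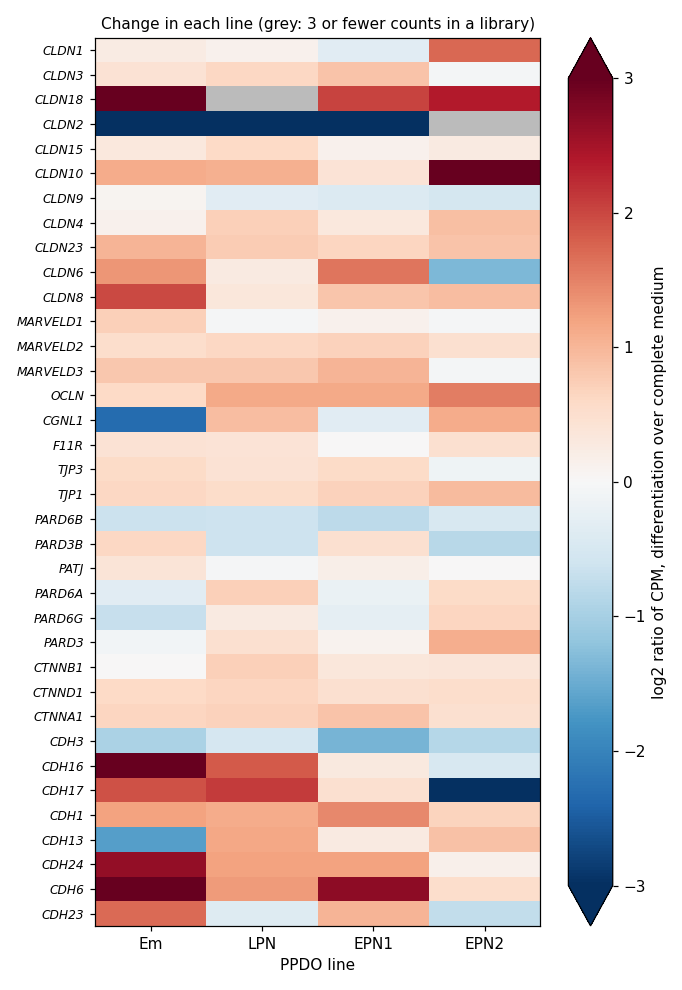
Colour gives the log2 ratio of differentiation to complete medium for each tested member (rows) in each of the 4 PPDO lines (columns), on a scale limited to 3 in either direction. OCLN, TJP1, CTNNA1 and CDH1 have the same colour in all 4 columns, while CDH17 turns in EPN2, where its log2 ratio is -3.82.

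Partners of the same junctions that the name rule did not take were counted in the same fit. Of 38 listed genes 34 were found and 29 tested, with a median log2 difference of 0.22, and 2 passed as higher and 0 as lower (6.90%, beside the background of 6.97%). MAGI1, a scaffold of tight junctions, was at 42.2 ± 8.84 CPM in complete medium against 75.4 ± 10.3 CPM in differentiation medium (mean ± SD, n = 4 each), and it rose by 0.84 (SE 0.17, edgeR adjusted p = 0.0335). LLGL2, a polarity protein of the lateral membrane, was at 164 ± 16.5 and 229 ± 13.4 CPM and rose by 0.48 (SE 0.11, edgeR adjusted p = 0.0447). In the blocked fit 6 of 29 passed (20.7%, beside 19.9% of all genes), all higher (background 9.48%), which added JUP (plakoglobin), LSR and ILDR1 (the angulins of tricellular corners) and SHROOM3 (an apical actin organiser), with adjusted p of 0.0368, 0.0256, 0.0477 and 0.0192.

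Known regulators of CDH1 and of epithelial junctions did not pass the test without the block. Of the CDH1 repressors listed, SNAI1 was at 1.39 ± 0.355 CPM in complete medium against 1.04 ± 0.165 CPM (edgeR adjusted p = 0.406), and SNAI2 at 5.25 ± 4.85 and 5.52 ± 4.77 CPM (adjusted p = 0.972), with no unadjusted p under 0.05 and no DESeq2 call. ZEB1 and ZEB2 had at most 8 and 7 counts in a library. All 8 activators of epithelial junctions were tested, with a median log2 difference of 0.45 and 0 calls in edgeR, while 2 had an unadjusted p under 0.05 (27.3% of all genes did). DESeq2 called 1 of 8 without the block (background 17.7%) and 5 of 8 with it (34.7%). In edgeR's blocked fit GRHL1, a grainyhead factor, passed as higher (difference 1.14, edgeR adjusted p = 0.0251).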

How the data were processed

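Bulk RNA-seq was analysed for 8 PPDO libraries. Per the study's methods, salmon ran within nf-core on a pig genome with custom annotation, and the authors deposited its estimated counts for each gene under the label raw counts. The submitters' processing notes name the builds Sscrofa11.1 and GRCh38. Gene length scaling before deposit could not be settled from the values, and it would change levels more than ratios between libraries. From the 56060 rows of the table, those for isoforms and extended gene ends (2.58% of counts) were summed per gene and rounded, and 8 transgene rows (0.00142% of counts) were left out, which gave 30282 genes.

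edgeR 4.0.16 in R 4.3.3 was run on all 8 libraries with TMM scaling and its default expression filter, medium as the only term, and Benjamini-Hochberg adjustment over the 14475 genes kept. Groups came from the sample titles and lines from the column names. The line was added as a block in an alternative fit because both libraries of a line come from 1 animal. Deviations from the medium means correlated at 0.400 to 0.657 within a line and at -0.479 to 0.242 in the 12 pairs between lines. DESeq2 1.42.0, RLE size factors, no filter, exclusion of extended ends and leaving out libraries or lines were the other alternatives. Without the block, p-values measure the spread between these 4 lines, and with it the spread of the medium difference between them. With 1 culture per line and medium, differences between animals and between cultures cannot be separated. Variance shares used log2 CPM with a prior count of 2. The fits were tested on simulated data.

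Members, gene lists and tests were chosen with earlier results of these data known. Genes named with values were those passing an adjusted p of 0.05 in either fit, a set of well-known junction genes, the 5 members with the largest difference and the 3 with the largest line share. Others named were chosen after their values were seen. Positions come from RefSeq's Sscrofa11.1 annotation. Some genes are not reported here.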

Additional observations from a re-analysis of the deposited data

Results flagged for a closer look

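Gaps between libraries were measured on log2 CPM, and levels are given as CPM. Of the 76 sets of 4 libraries examined (38 genes in 2 media), 3 (3.95%) held 1 outlying library. Its gap to its nearest neighbour took up more of the log2 range than Dixon's critical value at 95%, where chance gives about 1 in 20. PALS1 in complete medium had its lowest value in LPN, at 37 CPM, with a gap of 0.842 of the range. PARD6A in differentiation medium was highest in LPN, at 0.438 CPM, with a gap of 0.876 of the range. MARVELD3 in differentiation medium was lowest in EPN2, at 70.5 CPM, with a gap of 0.864 of the range, in the library that also had the lowest duct marker sum.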

How the results depend on the processing

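The line pairs the libraries, and with it as a replicate block the number of members called moved from 3 to 11, the junction partners from 2 to 6 and the median log2 difference of the members from 0.55 to 0.44. Over all genes the share called moved from 6.97% to 19.9%. DESeq2 called 11 of 43 members and 4 of 32 partners (12.5%), beside 17.7% of all genes. With the block it called 21 of 41 members and 12 of 30 partners (40%), beside 34.7% of all genes. No filter on low counts left 1 member and 0 partners, beside 2.05% of all genes. Leaving out 1 library or 1 line gave 0 to 5 members, 0 to 2 partners and median differences of 0.39 (without EPN2 in differentiation medium) to 0.59. Without the EPN2 line 5 members passed (CDH24, CTNNA1 and MARVELD3 higher, CDH22 and CLDN2 lower), with CDH22 reaching the filter only through complete medium. In 7 of the 12 such fits no member passed. In those 7, 0% to 3.36% of all genes passed, so most calls over the whole table were lost there too. Leaving out a line gave a median line share of 36.8% (without EPN2) to 52.8%. The cause of these shifts was not tested. RLE size factors and exclusion of extended gene ends left 3 members called.

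Over 18 alternatives for each of 28 genes, 423 of 504 differences kept direction and side of the threshold, 34 lost the call, 39 gained it and 8 changed sign, in 6 genes. When libraries or lines were left out, the difference ran from -0.17 (without Em in differentiation medium) to 0.41 for CLDN7 and, with the same library lowest, from -0.26 to 1.73 for CLDN10. It ran from -0.72 to 5.68 for CLDN18, from -0.81 to 2.66 for CDH13 and from -0.15 to 0.53 for PARD6G, each lowest without EPN2 in differentiation medium. For CLDN1 it ran from -1.5e-03, without the EPN2 line, to 0.79. PARD6G was also negative without the EPN2 line (-0.03) and with lines as a block (-0.01). None of the negative values named for these 6 genes passed the test. Differences below the limit of 3 counts were not detectable at this depth.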
